A study of Mus musculus with 24 samples.

Results

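The genes of the constitutive proteasome were measured in mouse liver, on 24 arrays of 1 mouse each. The mice were BALB/c males and formed 4 groups of 6. They were taken as the genes whose symbols begin with Psma, Psmb, Psmc or Psmd and a number, without the immunoproteasome genes Psmb8, Psmb9 and Psmb10. The rule gave 37 of the 18194 genes on the array. Of these, 36 were bright enough to be tested, among 13114 genes tested in all. The 36 comprised 7 alpha and 7 beta subunits of the 20S core, 6 ATPases and 11 other subunits of the 19S regulatory particle, and 3 chaperones that assemble the 19S particle (Psmd5, Psmd9 and Psmd10). Psma8, an alpha subunit of the testis, and Psmc3ip, a recombination factor and no subunit, also matched the rule. Psmb11, a beta subunit of the thymus, lay under the intensity limit of 4.31 on the log2 scale and was not tested.

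STZ mice had received 185 mg/kg streptozotocin by intraperitoneal injection, were chosen for raised non-fasting glucose, and then ate the purified AIN93G diet for 14 days. Streptozotocin is a glucose analogue that damages DNA by alkylation and kills the insulin-producing beta cells of the pancreas. The 0.1% and 0.5% quercetin mice had the same injection and selection, and their AIN93G diet held that amount of quercetin, a plant flavonol. Control mice had neither injection nor quercetin and ate AIN93G, so that an effect of the injected buffer cannot be told apart from that of streptozotocin. All mice were 6 weeks old on arrival, and nothing in the labels ties a mouse to its cage.

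The proteasome is the main protease of the cytosol and nucleus. Proteins tagged with ubiquitin are bound and unfolded by the 19S particle, whose ATPase ring threads them into the barrel of the 20S core, where the subunits Psmb5, Psmb6 and Psmb7 cut them. When proteasomes are inhibited, the transcription factor NRF1 (gene Nfe2l1) raises the subunit genes together, and its relative NRF2 (Nfe2l2) raises some of them during oxidative stress. Both bind antioxidant response elements with small MAF proteins.

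RefSeq sequences (GRCm38.p6 build) of the 250 bases before the start were at hand for 30 of the 37 genes, but not for Psmb7. They are shown for Psmb3, the subunit that differed between STZ and control livers, and for Psmb5 and Psmb6, catalytic subunits whose windows held a match to TGACNNNGC, the core of the antioxidant response element. The match is in capitals. Psmb3 lies on the plus strand at chr11:97703184-97703433, Psmb5 on the minus strand at chr14:54617996-54618245 and Psmb6 on the plus strand at chr11:70525107-70525356. Each sequence reads 5′ to 3′ on the strand of the gene.
Psmb3: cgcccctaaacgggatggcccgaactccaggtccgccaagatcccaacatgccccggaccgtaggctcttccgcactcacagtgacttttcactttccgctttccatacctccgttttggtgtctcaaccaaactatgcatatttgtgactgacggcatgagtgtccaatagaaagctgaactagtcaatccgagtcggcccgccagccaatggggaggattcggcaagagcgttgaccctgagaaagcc
Psmb5: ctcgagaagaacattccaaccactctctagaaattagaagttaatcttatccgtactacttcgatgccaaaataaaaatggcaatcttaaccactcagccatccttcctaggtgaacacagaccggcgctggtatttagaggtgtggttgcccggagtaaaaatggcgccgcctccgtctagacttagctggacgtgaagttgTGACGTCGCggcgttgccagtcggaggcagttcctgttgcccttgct
Psmb6: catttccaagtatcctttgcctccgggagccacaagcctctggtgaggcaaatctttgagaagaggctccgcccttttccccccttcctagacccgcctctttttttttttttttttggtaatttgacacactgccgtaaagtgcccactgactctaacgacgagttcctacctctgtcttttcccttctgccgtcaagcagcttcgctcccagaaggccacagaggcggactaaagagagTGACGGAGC

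The motif was searched on both strands of the 30 windows of 28 subunits and 19S chaperones. It was found in 5 windows (16.7%), against 3338 of 32851 windows of all genes (10.2%). The other 3 matches, with their neighbouring bases, were in Psmd9 as written and in Psmc6 and Psmd12 on the opposite strand.
Psmd9: atctagccggTGACCCCGCccacttccaa
Psmc6: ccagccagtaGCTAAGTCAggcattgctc
Psmd12: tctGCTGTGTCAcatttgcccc
The match of Psmb5 began 47 bases before the start and that of Psmb6 ended 1 base before it. Those of Psmc6 and Psmd12 began 227 and 247 bases before the start. A match of these letters does not show that a factor binds there.

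Levels are given as log2(intensity + 16) after quantile normalization, and differences as log2 differences of the group means. Hepatocyte markers checked the tissue. Albumin (Alb) averaged 12.89 in STZ livers and 12.86 in control livers, and the summed intensity of 8 hepatocyte genes lay between 37449.8 and 41713.9 in STZ livers and between 39403.7 and 40544.1 in controls. None of these 8 genes passed the test in STZ against control. In bulk liver RNA, fewer cells of a type and less RNA per cell cannot be told apart. Mean deposited intensity ranged from 61.0 to 102 over the 24 arrays.

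In STZ livers most proteasome transcripts lay near their control levels. A single member passed the test in STZ against control livers: Psmb3, a beta subunit without catalytic activity, was 1.33-fold lower. By limma's test at an adjusted p under 0.05, 1 of 36 members was lower and 0 were higher, a share of 2.78%, against 488 of 13114 genes (3.72%; 266 or 2.03% higher and 222 or 1.69% lower). The share of members was thus near that of all genes and is no result about the proteasome as a group. The median difference of the members was -0.016, beside -0.019 over all genes tested, and the members ranged from -0.41 to 0.29. The 95% interval of the difference lay within 1.5-fold either way for 35 of the 36 members, the exception being Psmb3, and for 91.8% of all genes.

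**Figure D1:**
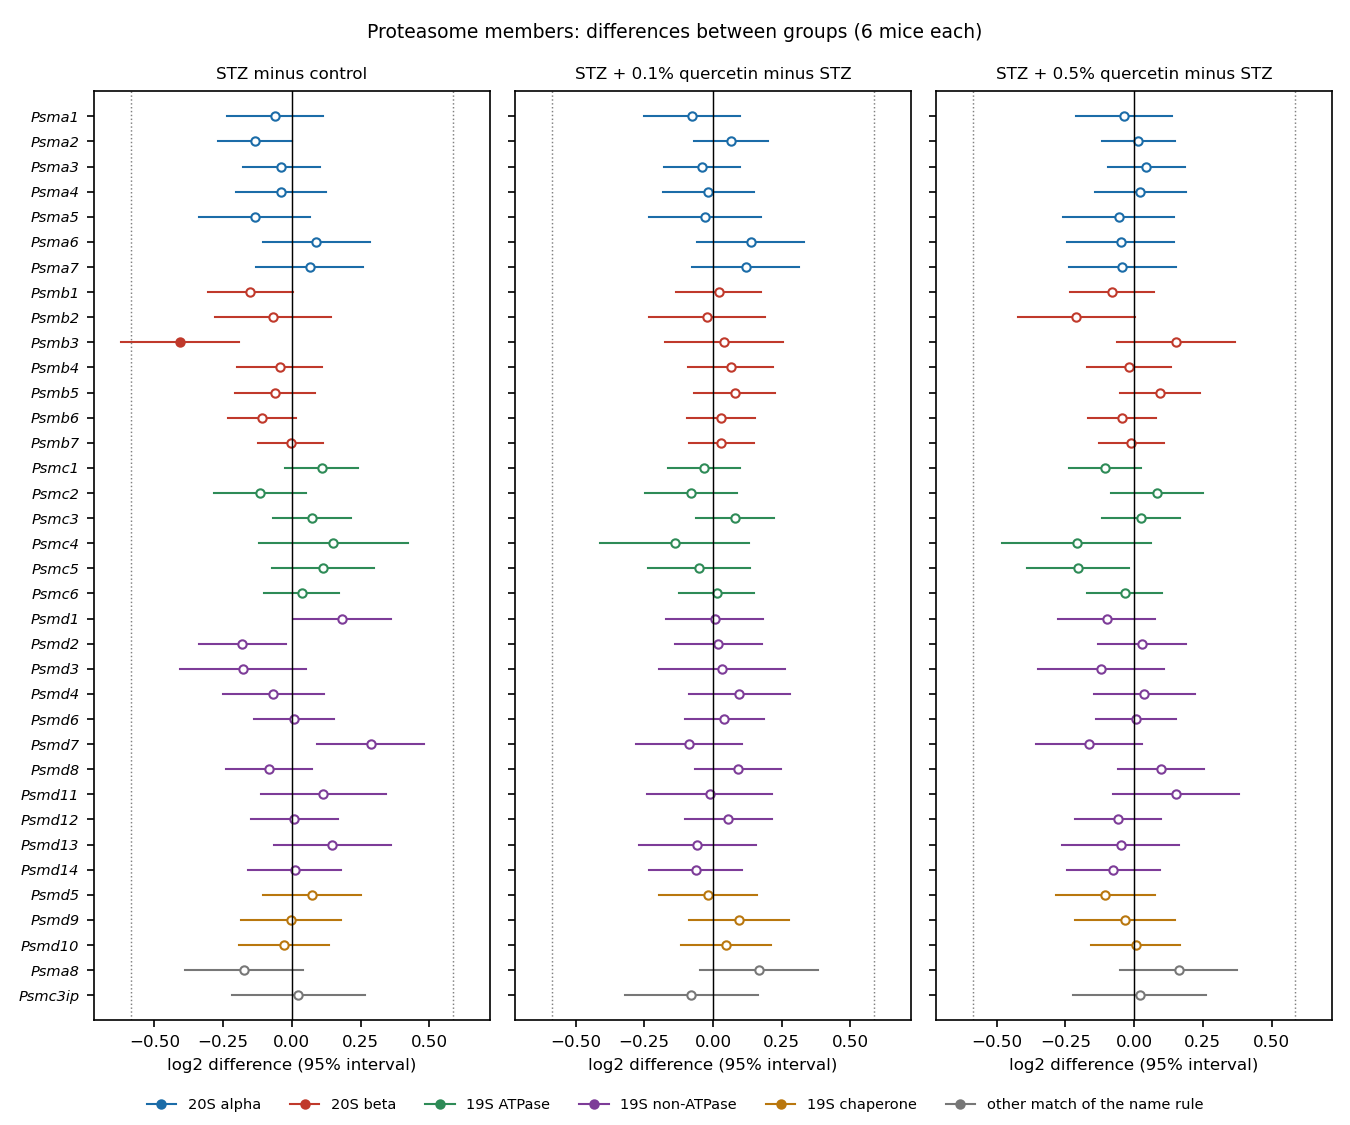
Log2 differences of the 36 tested proteasome genes (horizontal axis, with 95% intervals; 6 mice per group) for STZ minus control, STZ plus 0.1% quercetin minus STZ and STZ plus 0.5% quercetin minus STZ, coloured by role; filled points passed limma's test and dotted lines mark 1.5-fold. The single filled point is Psmb3 in STZ minus control, at -0.41.

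Psmb3 had levels of 8.80, 9.02 and 9.12 (lowest, median and highest) in STZ livers, against 9.24, 9.39 and 9.63 in control livers. All 6 STZ mice lay below all 6 controls. The means were 8.99 ± 0.12 in STZ livers and 9.39 ± 0.13 in controls (SD, n = 6 each), a difference of -0.41 (SE 0.10, 95% interval -0.62 to -0.19, adjusted p = 0.0265, limma). This value comes from the brighter of the gene's 2 probe sets over the intensity limit. The other had levels of 8.70, 8.87 and 9.01 in STZ livers and 8.88, 8.92 and 9.11 in controls. Its groups overlapped, and its difference was -0.08 (SE 0.08). The probe sets of Psmb3 thus disagreed in size, and with their mean the difference was -0.25 (adjusted p = 0.0878, limma).

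The call of Psmb3 also rested on the scaling and on single mice. On the values as deposited its difference was -0.30 (adjusted p = 0.344, limma), and under median scaling it was -0.45 (adjusted p = 0.00373, limma). It was lost without control replicate 3 (adjusted p = 0.0744, limma), control replicate 4 (0.0505), STZ replicate 3 (0.0620) or STZ replicate 6 (0.0759). The 3′ minus 5′ difference of Gapdh, a measure of RNA quality on these arrays, averaged -0.34 ± 0.10 in STZ livers and -0.04 ± 0.17 in controls (SD, n = 6 each). The same measure of actin averaged 1.12 ± 0.23 in STZ livers and 1.24 ± 0.19 in controls. Groups overlapped in both measures, with Gapdh at -0.46 to -0.17 in STZ livers and -0.18 to 0.28 in controls. With the Gapdh measure as a covariate the Psmb3 difference was -0.17 (adjusted p = 0.726, limma), in a fit that called 6 genes in all. Since the Gapdh measure itself differed between the groups, this fit cannot tell RNA quality apart from treatment.

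**Figure D2:**
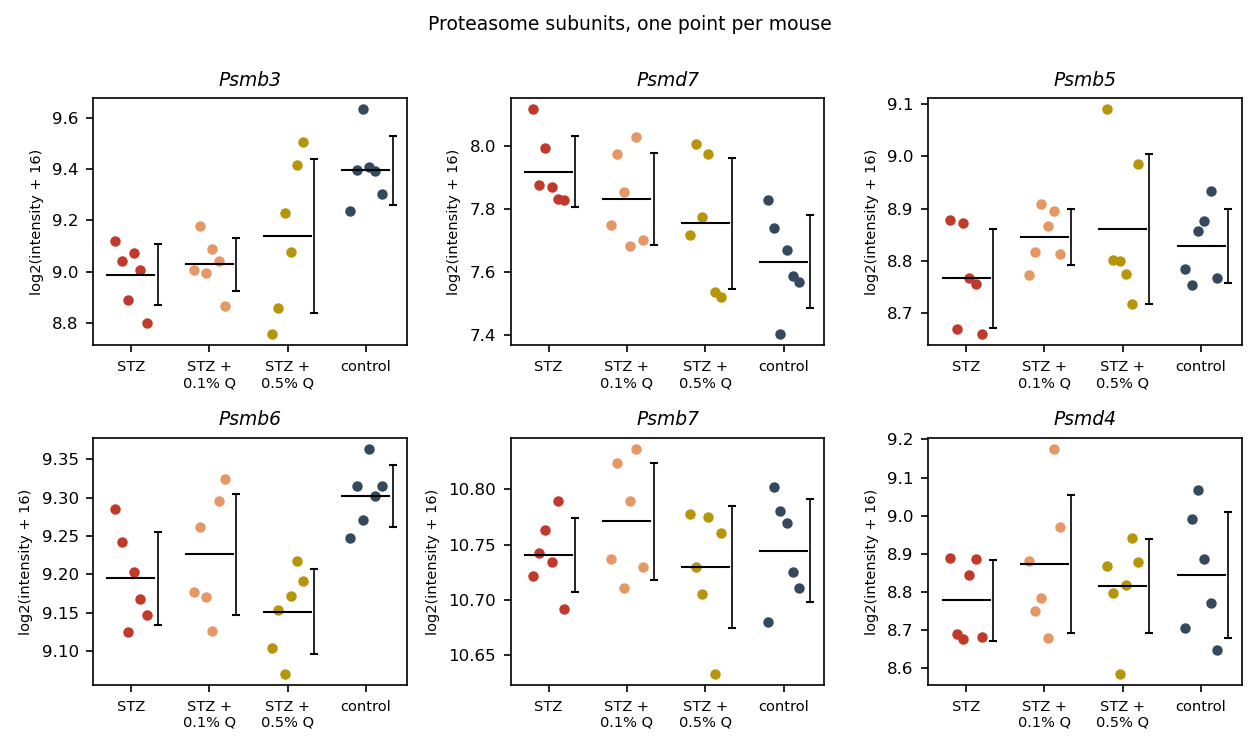
Levels of Psmb3, Psmd7, the catalytic subunits Psmb5, Psmb6 and Psmb7, and the ubiquitin receptor Psmd4 (vertical axes, log2(intensity + 16)), 1 point per mouse, with the mean (line) and SD (bar) of 6 mice per group. STZ and control mice do not overlap in Psmb3, while those of Psmb7 lie within 10.68 to 10.80.

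The 3 catalytic subunits did not pass the test. Psmb5, which cuts after hydrophobic residues, had 8.66, 8.76 and 8.88 in STZ livers and 8.75, 8.82 and 8.93 in controls, a difference of -0.06 (95% interval -0.21 to 0.08, adjusted p = 0.727, limma). Psmb6, which cuts after acidic residues, had 9.12, 9.19 and 9.29 in STZ livers and 9.25, 9.31 and 9.36 in controls. There 5 of 6 STZ mice lay below all controls, with a difference of -0.11 (95% interval -0.23 to 0.02, adjusted p = 0.382, limma). Psmb7, which cuts after basic residues, had 10.69, 10.74 and 10.79 in STZ livers and 10.68, 10.75 and 10.80 in controls. Its groups overlapped fully, and its interval of -0.12 to 0.11 was the narrowest of the members' by standard error (0.0574).

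The point estimates of the beta ring were on one side. By the brightest probe set of each gene, all 7 beta subunits were lower in STZ livers, by a median of -0.07, but only Psmb3 passed the test. Each was also lower under median scaling and trimmed-mean scaling, whereas on the values as deposited 4 were higher and 3 lower. Psmb1, chosen after its values were seen, had 9.09, 9.20 and 9.32 in STZ livers and 9.17, 9.38 and 9.51 in controls, a difference of -0.15 (adjusted p = 0.312, limma). The 3 probe sets of Psmb1 over the intensity limit were not all on one side. The alpha ring, which gates the core, had 2 subunits higher and 5 lower, with a median of -0.04. Its member Psma5 was at -0.14 (SE 0.10, adjusted p = 0.534, limma), and its smallest p was that of Psma2, at -0.13 (adjusted p = 0.298, limma).

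Of the 6 ATPases that unfold substrates, 5 had higher point estimates in STZ livers, with a median of 0.09, and 0 passed the test. A 5 to 1 split was also found under median and trimmed-mean scaling and on the values as deposited. Psmc4 was the most variable of them, averaging 9.19 ± 0.17 in STZ livers and 9.04 ± 0.19 in controls (SD, n = 6 each), without passing the test (0.15, SE 0.13). The median of all genes itself depended on the scaling: it was -0.02 after quantile normalization, 0.06 on the values as deposited and -0.03 under median scaling.

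The 11 other subunits of the 19S particle had 7 higher and 4 lower point estimates, and 0 passed. Psmd7, which holds the deubiquitinase Psmd14 in the lid, had the smallest p of them and was chosen after its values were seen. It had 7.83, 7.87 and 8.12 in STZ livers and 7.40, 7.63 and 7.83 in controls. There 5 of 6 STZ mice lay above all controls, with a difference of 0.29 (SE 0.09, adjusted p = 0.0914, limma). It did not pass under any of 13 alternative settings. Psmd14 itself averaged 8.74 ± 0.18 in STZ livers and 8.73 ± 0.10 in controls (SD, n = 6 each).

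Psmd1 and Psmd2, the large scaffolds of the 19S base, had point estimates of opposite sign. Psmd1 had 8.14, 8.22 and 8.28 in STZ livers and 7.89, 8.03 and 8.14 in controls. All 6 STZ mice lay above all controls, by a mean of 0.18 (SE 0.09, adjusted p = 0.281, limma). Psmd2 had 8.83, 9.02 and 9.22 in STZ livers and 9.05, 9.22 and 9.32 in controls, a difference of -0.18 (SE 0.08, adjusted p = 0.229, limma). Groups of STZ and control mice did not overlap in 2 members, Psmb3 and Psmd1, against 4.19% of all genes. An unadjusted p under 0.05 was reached by 5 of 36 members (13.9%) and by 16.7% of all genes.

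Psmd4, a ubiquitin receptor, averaged 8.78 ± 0.11 in STZ livers and 8.84 ± 0.17 in controls (SD, n = 6 each), a difference of -0.07 (SE 0.09, adjusted p = 0.775, limma). Psmd11, which joins lid, base and core, averaged 9.65 ± 0.23 in STZ livers and 9.54 ± 0.07 in controls, a difference of 0.11 (SE 0.11, adjusted p = 0.669, limma). The 19S chaperones Psmd5, Psmd9 and Psmd10 lay between -0.03 and 0.07, and 0 of 3 passed. Psma8 averaged 4.39 ± 0.15 in STZ livers and 4.56 ± 0.21 in controls, near the floor of the scale. Psmc3ip averaged 4.47 ± 0.20 in STZ livers and 4.45 ± 0.26 in controls, also near the floor.

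Probe sets of one gene often differed. Of the 17 members with several probe sets over the intensity limit, 5 had all of them on one side in STZ minus control. Psmb4 is an example, chosen after its values were seen: its brightest probe set was at -0.04 (SE 0.07) and its second at 0.33 (SE 0.20). Small differences of single members therefore depend on the probe set used.

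Markers of other cell types also differed between these livers. In STZ livers the summed intensity of the macrophage and Kupffer cell markers was 1807 to 2347, against 1296 to 1665 in controls, with 4 of 9 markers higher by limma's test. That of the B and plasma cell markers was 42.3 to 95.1 in STZ livers and 159.6 to 314 in controls, with 2 of 4 lower. That of the exocrine pancreas markers was 168 to 261 in STZ livers and 475 to 647 in controls, with 1 of 2 lower. Most of that sum was Cela1, at means of 7.76 in STZ livers and 9.14 in controls on the log2 scale (adjusted p = 0.000327, limma), while Prss2, at 4.51 and 4.69, and Cpa1, at 4.07 and 4.10 and under the limit, lay near the bottom of the scale in both groups. Of 5 endothelial markers Lyve1 rose, by 1.02 (adjusted p = 0.00181, limma). In that list 3 point estimates were higher and 2 lower, Stab2 at -0.20 (adjusted p = 0.279, limma) and Clec4g at -0.19 (0.138). Of 6 stellate cell and matrix markers Dcn rose, by 0.41 (adjusted p = 0.0219, limma). There 4 point estimates were higher and 2 lower, Reln at -0.33 (adjusted p = 0.0732, limma) and Col3a1 at -0.02 (0.962). The summed endothelial markers were 457 to 559 in STZ livers and 493 to 551 in controls, and those of stellate cells and matrix 775 to 1006 in STZ livers and 767 to 917 in controls. The part of these genes and cells in the Psmb3 difference was not tested.

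Quercetin moved no proteasome member past the test. At 0.1% against STZ alone, limma called 0 of 36 members, and 0 of 13114 genes (0%). An unadjusted p under 0.05 was reached by 0 members and by 5.24% of all genes. The members ranged from -0.14 to 0.17 with a median of 0.02, beside 0.01 over all genes, and all 36 intervals lay within 1.5-fold either way, as did 96.2% of those of all genes. The smallest p-values were those of Psma8 at 0.17 (adjusted p = 0.965, limma), Psma6 at 0.14 (0.986) and Psma7 at 0.12 (0.992). None of the 3 passed.

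At 0.5% against STZ alone, limma again called 0 of 36 members and 0 of 13114 genes (0%). An unadjusted p under 0.05 was reached by 1 member, the ATPase Psmc5, and by 7.51% of all genes. Psmc5 had 8.24, 8.44 and 8.56 at 0.5% quercetin and 8.43, 8.56 and 8.81 in STZ alone, overlapping groups with a difference of -0.20 (SE 0.09, adjusted p = 0.615, limma). Next came the beta subunit Psmb2 at -0.21 (adjusted p = 0.668, limma) and Psmd7 at -0.16 (0.713). The median of the members was -0.03, beside 0.001 over all genes, and all 36 intervals lay within 1.5-fold either way (95.1% of all genes).

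The size of this median depended on the scaling. It was -0.19 on the values as deposited and -0.17 under median scaling, where that of all genes was -0.09 and -0.07. In 0.5% against STZ the members with a lower point estimate numbered 21 of 36 after quantile normalization, 33 on the values as deposited and 32 under median scaling. The median was below that of all genes under these 3 scalings, and no member passed in this comparison under them.

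The doses were also compared with each other. At 0.5% against 0.1% quercetin limma called 0 of 36 members and 0 of 13114 genes (0%), and an unadjusted p under 0.05 was reached by 0 members and by 8.34% of all genes. The members had a median of -0.05, and all 36 intervals lay within 1.5-fold (94.8% of all genes). The smallest p-values were those of Psmc2 at 0.16 (adjusted p = 0.603, limma), Psma6 at -0.19 (0.607) and Psmb2 at -0.19 (0.639). In the trend over 0, 0.1 and 0.5% quercetin in the 18 STZ-treated mice, limma called 0 of 36 members and 0 of 13114 genes (0%). There an unadjusted p under 0.05 was reached by Psmc5 at -0.40 per 1% of the diet (adjusted p = 0.583) and Psmb2 at -0.43 (0.600), and by 8.13% of all genes.

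The catalytic subunits showed the same absence of calls over the doses. Psmb5 averaged 8.77 ± 0.09 in STZ alone, 8.85 ± 0.05 at 0.1% and 8.86 ± 0.14 at 0.5% quercetin, and 8.83 ± 0.07 in controls (SD, n = 6 each). Psmb6 averaged 9.20 ± 0.06, 9.23 ± 0.08 and 9.15 ± 0.06 in that order, and 9.30 ± 0.04 in controls. Psmb7 averaged 10.74 ± 0.03, 10.77 ± 0.05 and 10.73 ± 0.06, and 10.74 ± 0.05 in controls. None of the 3 passed in any of the 6 comparisons.

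Both quercetin groups were also set against the untreated controls, which the STZ comparison used too. At 0.1% quercetin Psmb3 was the only member past the test: 1 of 36 was lower and 0 higher by limma, against 731 of 13114 genes (5.57%; 2.94% higher and 2.64% lower). Psmb3 had 8.87, 9.03 and 9.18 at 0.1% quercetin and 9.24, 9.39 and 9.63 in controls. All 6 quercetin mice lay below all controls, as groups did not overlap in 3.94% of all genes, with a difference of -0.36 (SE 0.10, adjusted p = 0.0372, limma). The gene's dimmer probe set had 8.82, 8.94 and 9.09 at 0.1% quercetin and 8.88, 8.92 and 9.11 in controls, so that its groups overlapped. With the mean of all probe sets Psmb3 did not pass in this comparison. The call was kept under 8 of 13 alternative settings and in 16 of 24 fits that left out 1 mouse. It was lost without control replicate 2, 3, 4 or 5 or 0.1% quercetin replicate 1, 3, 5 or 6, with adjusted p up to 0.0989 in limma. An unadjusted p under 0.05 was reached by 7 members, close to the 18.9% of all genes. With 0.5% quercetin the comparison with controls called 0 of 36 members, against 17 of 13114 genes (0.13%; 0.0534% higher and 0.0763% lower) by limma, and an unadjusted p under 0.05 was reached by 6 members and by 12.3% of all genes.

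Of these 6, 4 belonged to the beta ring and had lower point estimates at 0.5% quercetin. Psmb1 was at -0.23 (adjusted p = 0.198, limma), Psmb2 at -0.28 (0.255), Psmb6 at -0.15 (0.289) and Psmb3 at -0.26 (0.304). In Psmb6 all 6 quercetin mice, at 9.07, 9.16 and 9.22 (lowest, median and highest), lay below all controls, at 9.25, 9.31 and 9.36; groups did not overlap in 0.709% of all genes. The other two were Psmd3, a lid subunit, at -0.30 (adjusted p = 0.259, limma) and Psmd11 at 0.27 (0.313). Under median scaling, which moved the median of all genes in this comparison to -0.09 and that of the members to -0.21, limma called 8 of 36 members, all lower and among them Psmb1, Psmb2, Psmb3 and Psmb6, beside 686 of the 13120 genes that this scaling left for testing (5.23%).

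In the 0.5% quercetin group, replicates 5 and 6, which were singled out with earlier results of these data known, had Psmb3 levels of 9.41 and 9.50, within the range of the controls, while the other 4 mice lay between 8.76 and 9.23. Their Kupffer cell sums of 1335 and 1304 and B cell sums of 222 and 241 lay within the control ranges given above. The exocrine pancreas sum was 199 to 303 in the other 4 mice and 485 and 560 in replicates 5 and 6, also within the control range. Their Gapdh 3′ minus 5′ differences of -0.06 and 0.01 lay within the control range of -0.18 to 0.28. Without these 2 mice limma called 2 members lower at 0.5% quercetin against control, Psmb1 and Psmb3, beside 433 of all genes (3.3%). Since the mice left out were singled out in that way, this count is a description and no separate test. The part of cell composition or RNA quality in these values was not tested.

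**Figure D3:**
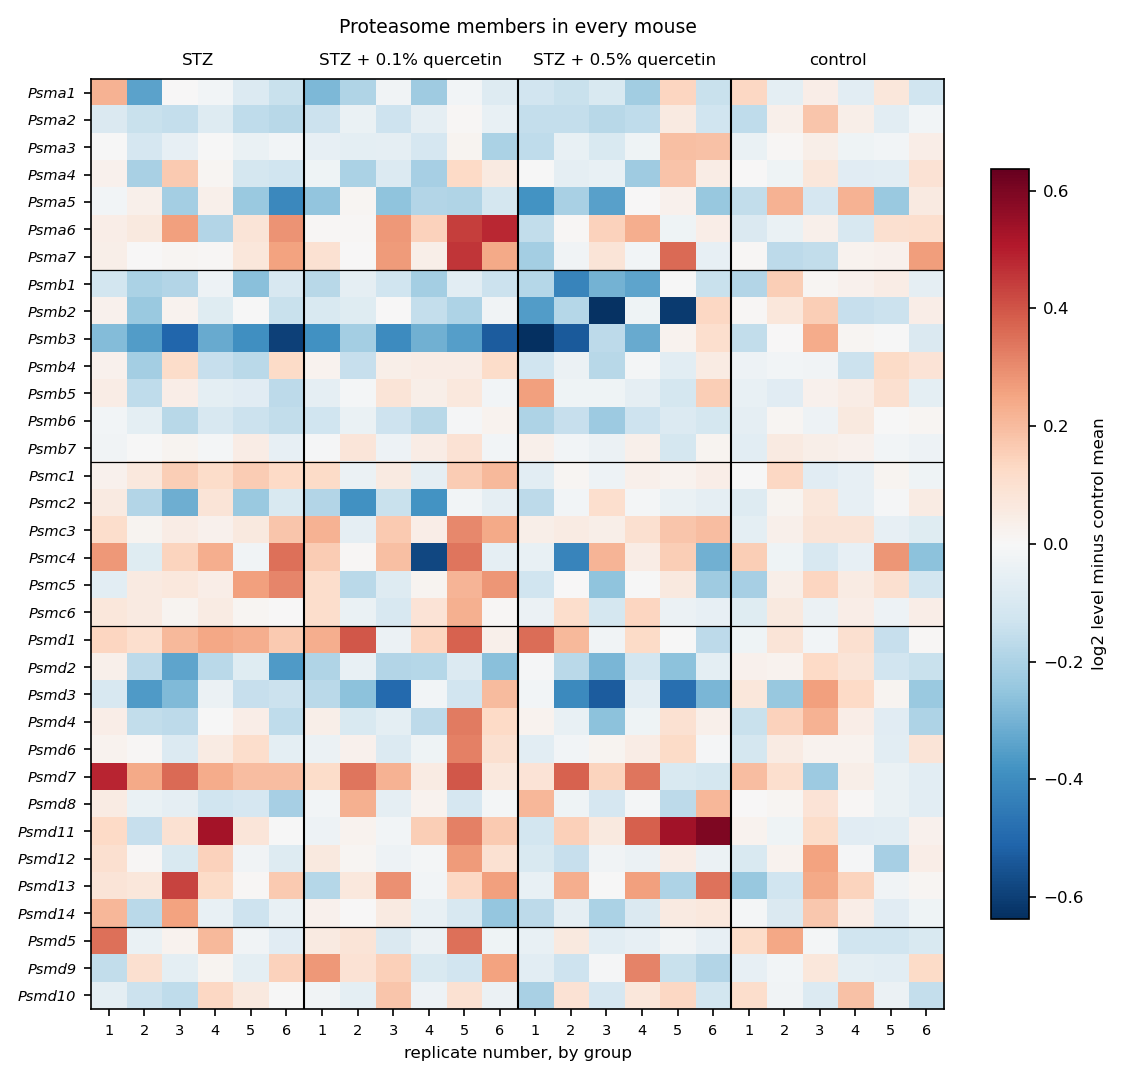
Levels of the 34 subunits and 19S chaperones in every mouse, as log2 difference from the mean of the controls (colour), with genes down the page by role and mice across it by group. Psmb3 is below the control mean in all STZ and all 0.1% quercetin mice, and its values in 0.5% quercetin replicates 5 and 6 are 9.41 and 9.50, against a control mean of 9.39.

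The mean over the 34 subunits and chaperones varied little between mice. It was 8.71 to 8.84 in STZ alone, 8.72 to 8.90 at 0.1% and 8.68 to 8.79 at 0.5% quercetin, and 8.75 to 8.84 in controls, so that all groups overlapped. Replicate mice also differed little in single members. The SD within groups had a median of 0.126 over the 34 genes, beside 0.167 for the 4363 genes tested in the same range of levels and 0.190 for all genes tested. That range ran from the lowest to the highest of the 34 genes, and the sets were not matched in level within it. The part of level in the smaller SD was not tested. Among the 34 genes the SD was lowest in Psmb7, at 0.0479, and highest in Psmc4, at 0.242.

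**Figure D4:**
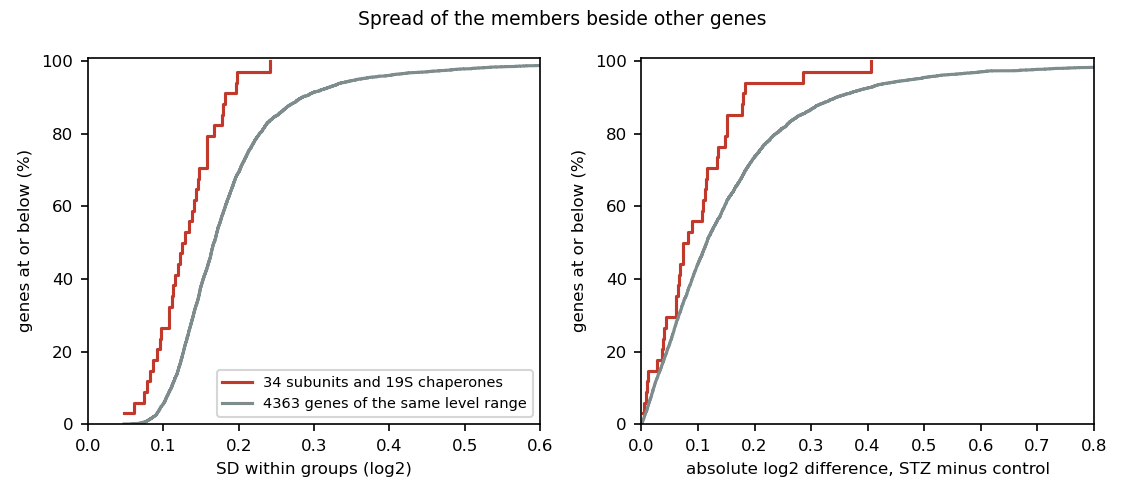
Cumulative share of genes (vertical axis, %) by their SD within groups (left) and by their absolute log2 difference in STZ minus control (right), for the 34 subunits and 19S chaperones and for 4363 genes of the same level range. The curve of the proteasome genes lies to the left in SD, with a median of 0.126 against 0.167, in sets not matched in level within that range.

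Deviations from the group mean were followed from mouse to mouse over the 24 arrays, as a description, since all genes share the arrays and their scaling. Over the 561 pairs of the 34 genes the median correlation was 0.130 and 67.6% of pairs were above 0, against 0.0035 and 50.5% for pairs of the 4363 genes in the same level range. Pairs within a role had a median of 0.177 and pairs between roles one of 0.120. The highest pair was the core subunit Psma2 with the lid subunit Psmd12, at 0.742, and the lowest was Psma7 with Psmd8, at -0.760. Against the mean of the other members, Psmd4 followed most closely, at 0.777, and the chaperone Psmd9 least, at -0.192. Psmb3 was at 0.232, Psmb5 at 0.0466 and Psmd7 at 0.0145.

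The immunoproteasome subunits replace the catalytic subunits where interferon acts. Psmb8, which replaces Psmb5, had 7.41, 7.60 and 7.86 in STZ livers and 6.84, 7.26 and 7.43 in controls. There 5 of 6 STZ mice lay above all controls, and its difference of 0.44 did not pass (SE 0.13, adjusted p = 0.0522, limma). Its dimmer probe set gave 0.06 (SE 0.11). Psmb9, the counterpart of Psmb6, was at 0.06 (SE 0.12, adjusted p = 0.867, limma) and Psmb10, the counterpart of Psmb7, at -0.002 (SE 0.11, adjusted p = 0.996, limma). At 0.1% quercetin against control, Psmb8 rose by 0.44 (SE 0.13, adjusted p = 0.0417, limma), with all 6 mice above all controls, and passed under 7 of 13 alternative settings. It did not pass on the values as deposited, under median scaling or with the mean of all probe sets. Nor did it pass with a pseudocount of 1, without the intensity filter or with the Gapdh covariate. It passed in 15 of 24 fits that left out 1 mouse, with adjusted p up to 0.108 in the rest (limma).

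Among 4 tested genes of activators and the inhibitor, 1 rose in STZ livers. Psmf1 encodes PI31, isolated as an inhibitor of the core. It had 6.75, 6.91 and 7.11 in STZ livers and 6.49, 6.57 and 6.62 in controls. All 6 STZ mice lay above all controls, and the difference was 0.36 (SE 0.08, adjusted p = 0.0154, limma). Its 4 probe sets over the limit all had higher point estimates, of 0.29 to 0.38. On the values as deposited the difference was 0.46 (adjusted p = 0.132, limma), under median scaling 0.33 (0.0638), with the Gapdh covariate 0.31 (0.387), and without STZ replicate 6 the adjusted p was 0.0534. Psme1, part of the activator PA28, was at 0.14 (adjusted p = 0.391, limma) and Psme4, the activator PA200, at 0.11 (0.681). Psme2 had probe sets with several symbols only and was not analysed here.

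Of the 8 genes listed with the NRF1 axis, which include Nfe2l2, 1 rose, and that was Nfe2l2. Nfe2l1, which encodes NRF1 itself, had 6.60, 6.64 and 6.80 in STZ livers and 6.52, 6.67 and 6.98 in controls, a difference of -0.07 (SE 0.11, adjusted p = 0.818, limma). Nfe2l2, which encodes NRF2, had 8.32, 8.44 and 8.62 in STZ livers and 7.42, 7.81 and 7.84 in controls. The groups did not overlap, and the difference was 0.71 (SE 0.14, adjusted p = 0.00563, limma). It was 0.82 on the values as deposited (adjusted p = 0.0502, limma) and 0.38 with the Gapdh covariate (0.474). In replicates 5 and 6 of 0.5% quercetin it was 7.80 and 7.53.

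Genes that NRF2 is known to raise were set beside it. Of Nqo1, Gclm, Gclc, Txnrd1 and Srxn1, all 5 had higher point estimates in STZ livers and 0 passed. Srxn1, sulfiredoxin, was at 0.50 (adjusted p = 0.0828, limma) and Nqo1, a quinone reductase, at 0.41 (0.134), with all 6 STZ mice above all controls in Nqo1. At 0.1% quercetin against control 2 of the 5 rose, Srxn1 by 0.73 (adjusted p = 0.00661, limma) and Gclm, a subunit of glutathione synthesis, by 0.37 (0.0444). In that comparison Nfe2l2 rose by 0.68 (adjusted p = 0.00501, limma) and Psmf1 by 0.39 (0.00635). Of 13 alternative settings of this comparison Srxn1 passed under 12, Nfe2l2 and Psmf1 under 11 each and Gclm under 4. Gclm passed in 11 of 24 fits that left out 1 mouse, with adjusted p up to 0.125 in the rest (limma). At 0.5% quercetin against control none of these lists had a gene past the test with all 6 mice. Nfe2l2 was 8.42 to 8.50 in replicates 1 to 4, above all controls, and passed without replicate 6 (0.60, adjusted p = 0.0186, limma) and without replicates 5 and 6 (0.74, 0.00021). Without both mice Pomp and Psmb8 also passed in this comparison, at -0.32 (adjusted p = 0.0163, limma) and 0.41 (0.0473). Replicates 5 and 6 were singled out with earlier results of these data known, and their Nfe2l2 levels lay within the control range. Calls made without them are thus a description and no separate test.

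Assembly factors and bound proteins had no call in STZ livers. Among the 8 chaperones, 3 of them the 19S chaperones above, Pomp had the smallest p. Pomp, the maturation protein of the core, had 9.52, 9.61 and 9.73 in STZ livers and 9.75, 9.81 and 9.97 in controls. All 6 STZ mice lay below all controls, by a mean of -0.23 that did not pass (SE 0.07, adjusted p = 0.0864, limma). Of the 11 tested proteins bound to the 19S particle, Sem1, a small subunit that the name rule does not reach, averaged 8.32 ± 0.18 in STZ livers and 8.63 ± 0.05 in controls (SD, n = 6 each). The highest STZ mouse, at 8.50, lay below the lowest control, at 8.54, and its difference was -0.31 (SE 0.09, adjusted p = 0.0676, limma), but its second probe set gave 0.13 (SE 0.10). At 0.1% quercetin against control Sem1 fell, by a log2 difference of -0.36 (SE 0.09, adjusted p = 0.0196, limma), and passed under 10 of 13 alternative settings. Without 0.1% quercetin replicate 5 or 6 it did not pass (adjusted p up to 0.0651, limma).

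**Figure D5:**
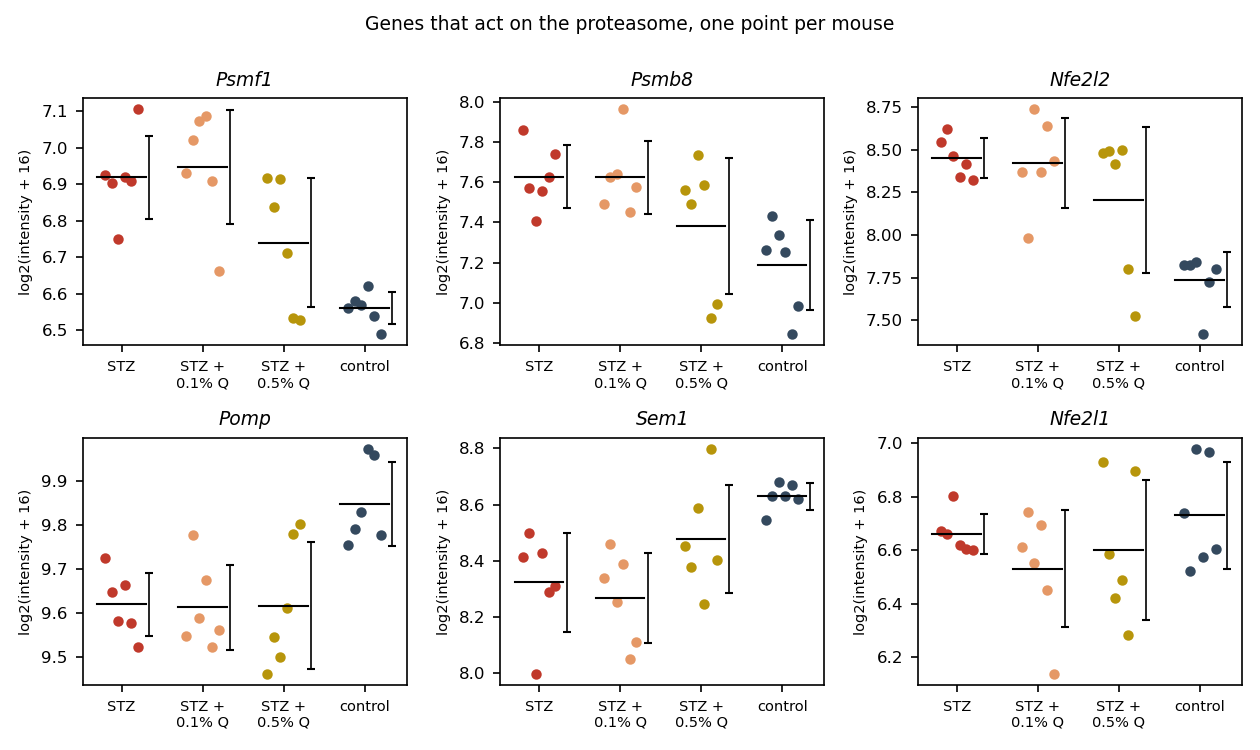
Levels of Psmf1, Psmb8, Nfe2l2, Pomp, Sem1 and Nfe2l1 (vertical axes, log2(intensity + 16)), 1 point per mouse, with the mean (line) and SD (bar) of 6 mice per group. In Psmf1 and Nfe2l2 all 6 STZ mice lie above the controls, in Pomp and Sem1 all 6 lie below them, and in Nfe2l1 the groups overlap.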

How the data were processed

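Liver RNA was amplified from the 3′ end and hybridised to Affymetrix arrays as biotin-labelled cRNA, per the labels' protocols. The authors deposited 1 intensity, on a linear scale, for each of 45101 probe sets on each array. How probes were summarised and scaled is not given in the sources used here, and the number of arrays limits the precision. All 24 arrays were then quantile normalized and converted to log2(value + 16), which understates folds of dim genes. Names came from the platform table: 34958 probe sets had 1 symbol, 932 several and 9211 none, and 34754 of the first matched a gene ID. The probe set of highest mean stood for each gene. Genes under the 40th percentile of probe set means were left out.

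Groups, taken from the labels, were tested in limma 3.58.1 (R 4.3.3), two-sided, in 1 fit with 4 group means and Benjamini-Hochberg adjustment over 13114 genes at 0.05. The slope over the doses used the 18 mice given streptozotocin. Comparisons that share a group are not independent. Named genes were the members past the test, or else the 3 with the smallest p, the catalytic and immunoproteasome subunits and fixed subunits and regulators. Related genes past the test in any comparison were named too, which brought in Psmf1, Sem1, Srxn1 and Gclm. Nqo1 was picked from its list after its values were seen. Others are said to be chosen after their values were seen, or are given as the extremes of a group. The members, lists and alternatives were chosen with earlier results of these data known. The fit was tested on simulated data. Alternatives were other scalings, pseudocounts of 1 and 64, other filters, the mean of all probe sets, only the groups compared, a replicate block, a Gapdh covariate, a variance trend and leaving out mice. The labels do not say that replicate numbers mark a cage or batch.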

Additional observations from a re-analysis of the deposited data

Results flagged for a closer look

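In 144 combinations of a tested member and a group, 6 single mice lay apart from the other 5 of their group by more of the group's range than Dixon's critical value allows. Chance gives such a gap in about 1 of 20 groups. At 0.5% quercetin, Psma1 was at 9.04 in replicate 5, with the others between 8.68 and 8.80, and Psma2 was at 9.06 in the same mouse, with the others between 8.83 and 8.87. Psmd5 was at 7.47 in replicate 2 of that group, with the others between 7.34 and 7.39, and Psmd9 at 7.75 in replicate 4, with the others between 7.25 and 7.43. In STZ alone, Psma7 was at 8.69 in replicate 6, with the others between 8.44 and 8.50. At 0.1% quercetin, Psmb4 was at 9.87 in replicate 2, below the others at 10.05 to 10.14. None of these 6 genes passed limma's test in any comparison.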

How the results depend on the processing

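Alternatives changed the number of proteasome genes called as follows. On the values as deposited, the count was 0 in STZ against control and 0 in 0.1% quercetin against control, where it was 1 after quantile normalization. It was also 0 in both with the mean of all probe sets and with the Gapdh covariate, under which 6 and 4 genes were called in all. In 0.1% quercetin against control it was 0 with a pseudocount of 1. In 0.5% quercetin against control it was 8 under median scaling, with 686 genes called in all, and 2 without replicates 5 and 6 of 0.5% quercetin, with 433. Without these 2 mice Psmb8, Pomp and Sem1 passed in STZ against control, at 0.44, -0.23 and -0.31 (adjusted p = 0.0101, 0.0475 and 0.0391, limma). All STZ and control mice stayed in that fit, and the differences of Psmb8 and Sem1 were the same with and without the 2 mice. Their SE, which rests on the spread shared by all groups, went from 0.129 to 0.102 in Psmb8 and from 0.0933 to 0.0869 in Sem1. The cause of the other changes was not tested.

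The median difference of the members on the values as deposited was 0.0548 in STZ against control, -0.0595 in 0.1% and -0.186 in 0.5% quercetin against STZ, -0.126 between the doses and -0.0788 in 0.5% quercetin against control. Under median scaling it was -0.0685 in STZ against control, -0.167 in 0.5% quercetin against STZ, -0.150 between the doses, and -0.0549 and -0.206 in 0.1% and 0.5% quercetin against control. These scalings differ in how the arrays are aligned.

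Deviations of same-numbered mice of different groups had a median r of 0.0134 (36 pairs, 5 above 0.1, the highest 0.322). For different numbers the median was -0.0103 (180 pairs, 25 above 0.1). These values cannot show whether same-numbered mice shared a cage, day or batch. With replicate number as a block, the count in 0.1% quercetin against control was 0, and the counts of the other comparisons did not change.

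When each of the 24 mice was left out in turn, the count was 0 to 1 in STZ against control and in 0.1% quercetin against control, and 0 in the other comparisons and the dose trend. The median stayed between -0.0291 and -0.00596 in STZ against control, between 0.00198 and 0.0334 in 0.1% and between -0.0421 and -0.00915 in 0.5% quercetin against STZ, between -0.0696 and -0.0247 between the doses, and between -0.00738 and 0.0283 in 0.1% and between -0.0393 and -0.0114 in 0.5% quercetin against control. Of 8249 values of single genes under an alternative, 73 lost a call, 45 gained one and 0 reversed a call.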
